A study of Mus musculus with 2 samples.

Results

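The 9 genes described here are C7, C3, C4b, C2, C1s1, C1ra, Cfb, Serping1 and C3ar1, which encode complement components, a complement inhibitor and a complement receptor. They were chosen by gene symbol, with earlier results of these data known, and all 9 were found among the 27998 genes of the count tables. Their messenger RNA was measured cell by cell in injured mouse carotid arteries by droplet single-cell RNA sequencing. The later library came from vessels harvested 28 days after wire injury (4 weeks) and the earlier one from vessels harvested 14 days after it (2 weeks). All mice were male C57BL/6J in an intimal hyperplasia model made by wire injury with the external carotid artery tied off, and the design gives an age of 8 weeks and n = 18 for each time. No genetic alteration is named. The labels conflict on the vessel, since the extraction text speaks of aortic grafts and the injury text names a left and later a right vessel, and the carotid artery is taken here. Each time is 1 library in which cells cannot be traced to an animal, so differences between the times have no replicate check, no test was made, and all intervals are 95% intervals of counting error only. Uninjured vessels were not analysed here. The labels say that the adventitia was dissected from the inner layers, but not which layers were loaded.

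Complement is a cascade of proteins that marks surfaces for uptake and draws in leukocytes. In the classical pathway C1q binds its target, C1r activates C1s, and C1s cleaves C4 and C2. In the alternative pathway factor B carries the cascade forward from C3, both routes meet at the cleavage of C3, and the terminal components, C7 among them, assemble a pore in the target membrane. The liver makes most circulating complement, while fibroblasts and macrophages can make components locally, and the C3a receptor is known from myeloid cells.

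Depth was 83753250 UMIs (unique molecular identifiers, which count captured transcripts) over 8565 cell barcodes in the 4-week library, against 78773018 over 5864 in the 2-week one. After filtering, 7460 cells at 4 weeks and 5172 cells at 2 weeks fell into 29 clusters, of which 26 carried the markers of 13 cell classes. The complement genes were kept out of the clustering and of the marker lists. The fibroblast-like class numbered 2590 cells at 4 weeks (34.7%), against 946 at 2 weeks (18.3%), and the macrophage-like class 308 (4.13%), against 1157 (22.4%). Cells with thymocyte markers, which an artery should lack, were 9.75% of the 4-week cells and 26.4% of the 2-week cells, beside 15 and 54 parathyroid-like and 1 and 27 airway epithelial-like cells. Cluster 8 carried 12 of 12 fibroblast markers but had the pericyte genes Kcnj8 and Abcc9, and none of the 12, among its top 10 genes. Cluster 16 carried 9 of 12, was shallow (a median of 2083 UMIs), and had the red cell gene Hbb-bs and none of the 12 among its top 10. Both were therefore left unnamed and are given by number. The libraries shared 6 barcodes among kept cells.

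On the mm10 genome, by the GENCODE M21 annotation, 4 of the genes lie on chromosome 17 and 3 on chromosome 6. C3 spans chr17:57203970-57228136, C4b spans chr17:34728380-34743882, Cfb spans chr17:34856374-34862518 and C2 spans chr17:34862604-34898265, all on the minus strand, so that Cfb and C2 are direct neighbours. C1ra (chr6:124512405-124523443, plus strand) and C1s1 (chr6:124530345-124542359, minus strand) are also neighbours, and C3ar1 lies at chr6:122847138-122856161 on the minus strand. C7 (chr15:4988762-5063740) and Serping1 (chr2:84765387-84775444) are both on the minus strand. Of the 50-base words in the last 500 bases of their transcripts, where 3' reads fall, Cfb shares 64.3% and C2 28.8% with the annotated gene Gm20547, C4b shares 38.1% with C4a, C1s1 22.9% with C1s2 and C1ra 19.1% with C1rb. Counts of these 5 genes are uncertain for that reason, by an amount that was not measured. C4a is not among the genes of the count tables, so it could not be counted apart from C4b. Gm20547 is listed with 0 UMIs in the kept cells of either library. C7, C3, Serping1 and C3ar1 share no such word.

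Promoter windows of 300 bases are shown for 3 of the 5 members with a promoter matched in RefSeq. No promoter was matched for C4b, C2, Cfb and Serping1, so these could not be shown. C7 differed most between the libraries among the 8 genes found mainly in fibroblast-like cells, and C3ar1 was the one macrophage gene. C3 was found in both fibroblast-like and myeloid cells. Its myeloid share at 2 weeks (5.84%) was below those of Cfb (21.6%) and C4b (9.94%). The sequences are from RefSeq (GRCm38.p6), read 5' to 3' along the gene, from 250 bases before to 50 bases after its start, at chr15:5063724-5064023, chr17:57228087-57228386 and chr6:122856108-122856407, all on the minus strand.
C7: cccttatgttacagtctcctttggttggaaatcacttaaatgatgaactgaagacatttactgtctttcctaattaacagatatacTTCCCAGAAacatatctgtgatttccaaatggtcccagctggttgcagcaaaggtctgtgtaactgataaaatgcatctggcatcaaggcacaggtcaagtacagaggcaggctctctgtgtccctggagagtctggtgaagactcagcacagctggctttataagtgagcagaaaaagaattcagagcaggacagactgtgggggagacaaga
C3: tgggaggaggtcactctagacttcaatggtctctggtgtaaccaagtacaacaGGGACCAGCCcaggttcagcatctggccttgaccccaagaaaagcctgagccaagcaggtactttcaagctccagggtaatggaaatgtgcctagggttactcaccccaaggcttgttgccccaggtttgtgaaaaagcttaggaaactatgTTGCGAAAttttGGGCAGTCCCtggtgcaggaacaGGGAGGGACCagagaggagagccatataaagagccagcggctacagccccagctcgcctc
C3ar1: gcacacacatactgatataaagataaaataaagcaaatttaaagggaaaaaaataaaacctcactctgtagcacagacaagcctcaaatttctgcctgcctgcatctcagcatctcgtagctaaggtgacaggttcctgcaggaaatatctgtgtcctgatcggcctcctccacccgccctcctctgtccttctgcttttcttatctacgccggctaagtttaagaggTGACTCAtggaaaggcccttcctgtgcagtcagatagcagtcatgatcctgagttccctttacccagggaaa
Capitals mark matches to 5 motifs searched on both strands, in which N is any base: an interferon-type motif (GAAA, any 2 bases, GAAA), a GAS-type motif TTCNNNGAA, an AP-1-type motif TGANTCA, a C/EBP-type motif TTGCNNAA and a kappa B-type motif (GGGA, any 4 bases, CC). The C7 window holds 1 match, of the GAS type, whose first base is at -164 from the start. The C3 window holds a C/EBP-type match at -45 and 3 kappa B-type matches, at -197, -33 (opposite strand) and -10, and none of them overlap. The C3ar1 window holds an AP-1-type match at -22. Of 32817 RefSeq promoter windows of the same length, 3.43% hold the interferon-type motif, 8.29% the GAS-type, 7.81% the AP-1-type, 10.8% the C/EBP-type and 20.7% the kappa B-type. A match describes the letters in a window and is not a measured binding site.

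The first comparison concerns how the 9 genes were divided between fibroblasts and myeloid cells. Transcripts of 8 genes were found mostly in fibroblast-like cells and those of C3ar1 almost wholly in macrophage-like cells, in both libraries. Fibroblast-like cells held between 65.1% (C2) and 85.4% (C1s1) of the UMIs of each of the 8 genes at 4 weeks, and between 60.4% (C7) and 87.9% (C1s1) at 2 weeks. Clusters 8 and 16 together held a further 12.8% (C1s1) to 32.7% (C2) at 4 weeks and 8.66% (C3) to 38.3% (C7) at 2 weeks. The myeloid classes (macrophage-like, dendritic cell-like and neutrophil-like) held 0.158% (C7) to 2.02% (Cfb) of these UMIs at 4 weeks. At 2 weeks, when macrophage-like cells were the larger class, they held 0.591% (Serping1) to 21.6% (Cfb), with C4b at 9.94% and C3 at 5.84%. For C3ar1 the order was turned round, with 95.2% of 766 UMIs in myeloid cells at 4 weeks and 98.2% of 5936 UMIs at 2 weeks.

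**Figure D1:**
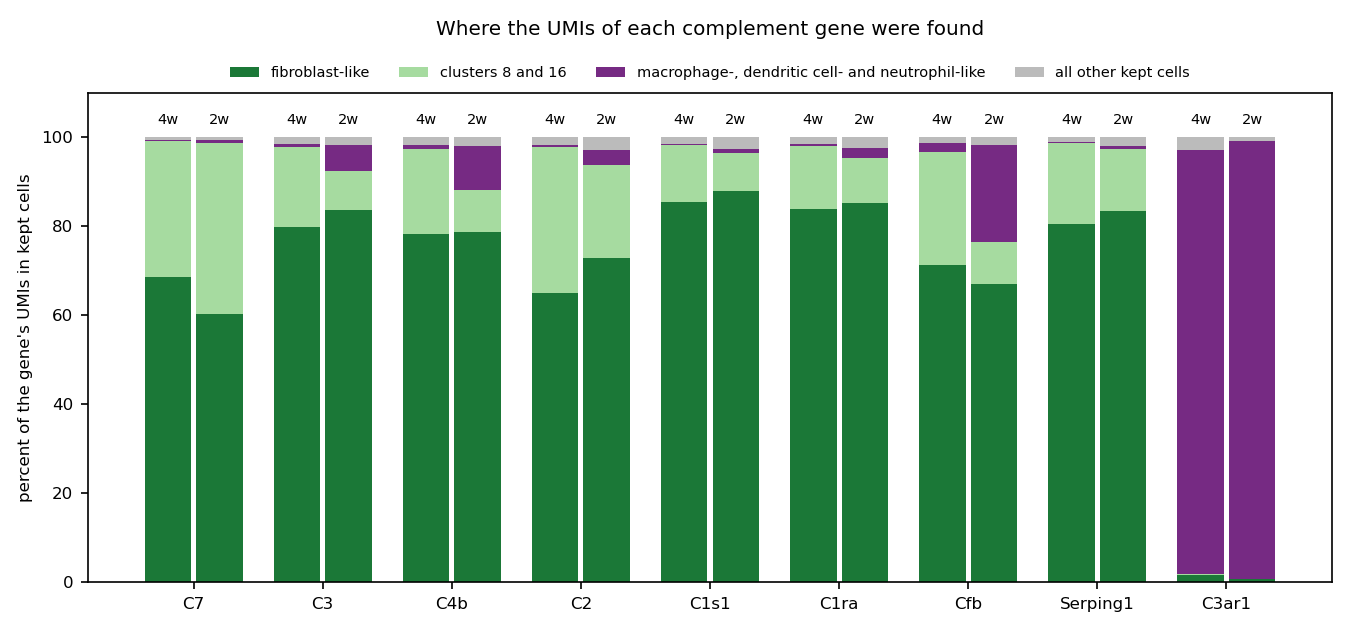
Percent of the UMIs of each complement gene (vertical axis) that were found in fibroblast-like cells, in clusters 8 and 16, in the myeloid classes and in all other kept cells, with the 4-week bar left of the 2-week bar. Myeloid cells held 2.02% of Cfb UMIs at 4 weeks and 21.6% at 2 weeks, and 95.2% and 98.2% of C3ar1 UMIs.

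These shares depend on how many cells each class holds, so levels were taken as CPM, the UMIs of a gene summed over a class and scaled to a common total of 1e+06. Fibroblast-like cells were past 2-fold higher than macrophage-like cells for 8 of 9 genes at both times and lower for C3ar1. Over all genes tested, 25.1% were past 2-fold higher and 16.4% lower at 4 weeks, and 28.0% higher and 17.6% lower at 2 weeks. The median log2 ratio of the 9 genes was 4.09 at 4 weeks and 3.88 at 2 weeks, beside 0.13 and 0.18 over all genes tested. Since the genes were chosen with earlier results of these data known, the contrast with all genes is a description only. Among genes with at least 100 UMIs the median was -0.26 at 4 weeks and -0.02 at 2 weeks, so a scaling to the median gene would move every ratio by that much.

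**Figure D2:**
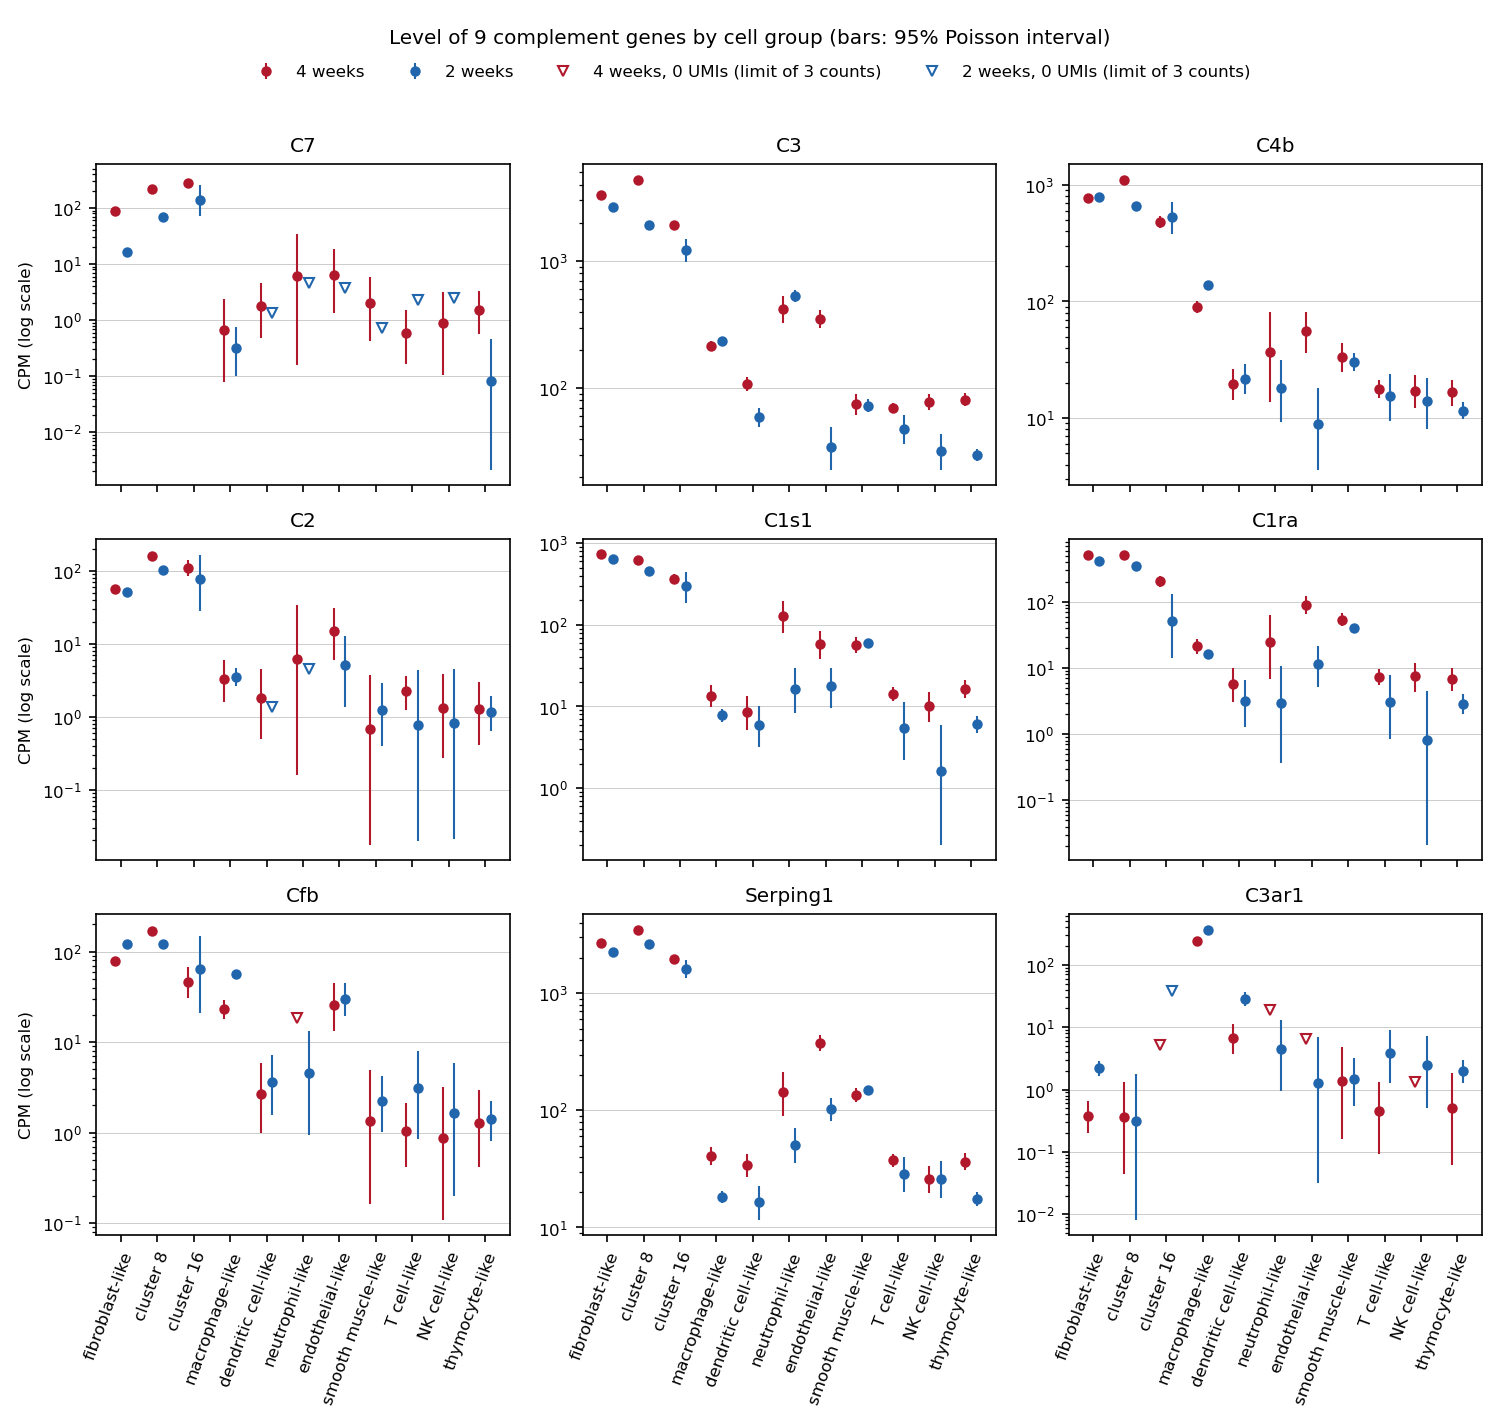
Level of each complement gene in CPM (log scale, vertical axis) in 11 cell groups at 4 weeks (red, left) and 2 weeks (blue, right), with 95% Poisson intervals, and open triangles at the level that 3 counts would give where a group had 0 UMIs. Fibroblast-like cells and clusters 8 and 16 stood above every other group shown of the same library for all genes but C3ar1, which was highest in macrophage-like cells.

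Free RNA in the droplets gives every cell some UMIs of abundant fibroblast genes, so the macrophage-like levels were read beside thymocyte-like cells, which should not make these genes. Cfb, C4b and C3 stood above that background in macrophage-like cells, whereas Serping1 and C1s1 did not. The macrophage-like level over the thymocyte-like level was 4.18 on the log2 scale for Cfb at 4 weeks (2.89 to 5.85) and 5.33 at 2 weeks (4.64 to 6.11). It was 2.44 (2.04 to 2.85) and 3.58 (3.34 to 3.84) for C4b, and 1.41 (1.21 to 1.61) and 2.99 (2.83 to 3.15) for C3. C1ra, the protease that activates C1s, was also above it, by 1.64 (0.98 to 2.35) and 2.51 (2.00 to 3.06). For C2 the difference was 1.38 at 4 weeks, with an interval that included 0 (-0.31 to 3.27), and 1.62 at 2 weeks (0.76 to 2.58). For Serping1 the difference was 0.17 (-0.19 to 0.53) at 4 weeks and 0.08 (-0.19 to 0.34) at 2 weeks, and for C1s1 -0.27 (-0.87 to 0.32) and 0.37 (-0.06 to 0.80). These intervals include 0, and the macrophage-like UMIs of both genes are read as background. Dcn, a matrix gene of fibroblasts, gave -0.30 (-0.468 to -0.135) and 0.18 (0.049 to 0.313) in the same comparison. Of the 6 fibroblast genes compared below, Pdgfra was highest, at 0.70 (-0.80 to 2.24) and 1.12 (0.09 to 2.26). The others ran from -0.30 to 0.10 at 4 weeks and from 0.08 to 0.24 at 2 weeks. An interval without 0 does not by itself set a gene above background, and the C2 interval overlapped that of Pdgfra at both times.

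**Figure D3:**
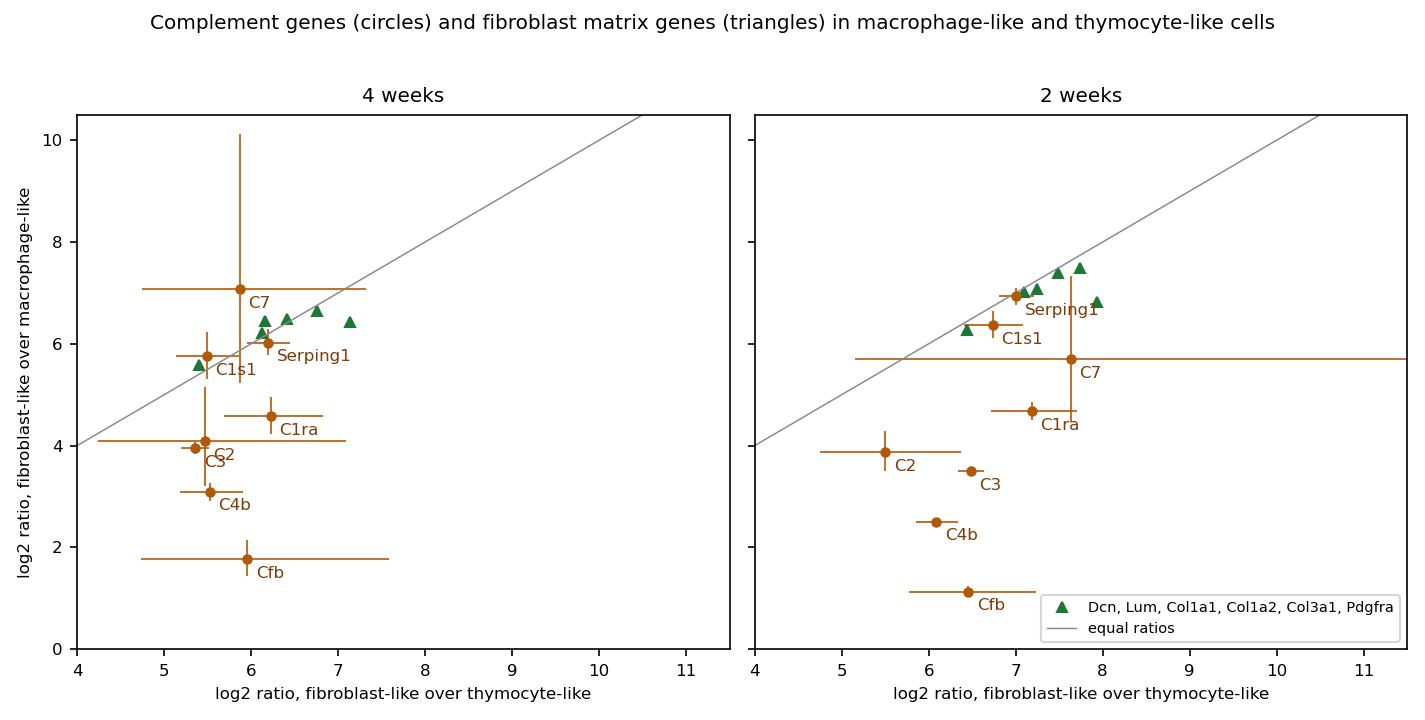
Log2 ratio of the fibroblast-like level over the thymocyte-like level (horizontal axis) and over the macrophage-like level (vertical axis) for 8 complement genes (circles, 95% intervals of counting error) and 6 fibroblast genes (triangles), at 4 weeks (left) and 2 weeks (right), with the line of equal ratios. Serping1 and C1s1 lie near the line with the fibroblast genes other than Pdgfra, and Pdgfra, Cfb, C4b, C3, C2 and C1ra lie below it at both times. The horizontal bar of C7 at 2 weeks, which rests on 1 thymocyte-like UMI, runs past the frame.

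The same order was seen in the ratio of fibroblast-like over macrophage-like cells. The 6 fibroblast genes Dcn, Lum, Col1a1, Col1a2, Col3a1 and Pdgfra ran from 5.58 (Lum) to 6.65 (Col1a1) at 4 weeks and from 6.27 (Lum) to 7.50 (Col1a1) at 2 weeks, on the log2 scale. Serping1 (6.02 and 6.93) and C1s1 (5.75 and 6.37) fell inside those ranges at both times. C1ra (4.58 and 4.68), C2 (4.09 and 3.88), C3 (3.95 and 3.50), C4b (3.09 and 2.50) and Cfb (1.77 and 1.13) fell below them. C7 gave 7.08 at 4 weeks (5.23 to 10.1), from 2 macrophage-like UMIs, and 5.69 at 2 weeks (4.46 to 7.32), from 5, so its position among them is not resolved. The C2 ratio at 4 weeks was 5.40 without the macrophage-like cell with most C2 UMIs, and that of C3 was 4.60 after the thymocyte-like level was subtracted.

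C1ra and C1s1, the proteases of the C1 complex, were fibroblast genes whose levels differed little between the times. C1s1, whose product cleaves C4 and C2, measured 732 CPM at 4 weeks (723 to 741) and 650 CPM at 2 weeks (639 to 660) in fibroblast-like cells, a log2 difference of 0.17 (0.14 to 0.20). C1ra measured 515 CPM (507 to 523) and 420 CPM (412 to 429), a difference of 0.29 (0.26 to 0.33). Both differences were higher at 4 weeks, outside counting error and far from 2-fold. In macrophage-like cells C1ra was at 21.5 CPM at 4 weeks and 16.4 CPM at 2 weeks, and C1s1 at 13.6 and 7.86 CPM. Each cell was then thinned to 2700 UMIs, so that shares of cells can be compared across depths. A C1s1 UMI was found in 80.9% of fibroblast-like cells of the 4-week library and 74.7% of those of the 2-week library, in 2.63% and 2.50% of macrophage-like cells, and in 3.05% and 1.67% of thymocyte-like cells. Without thinning the fibroblast-like shares were 98.0% and 96.7%. Median depths before thinning were 12773.5 and 22462.5 UMIs in fibroblast-like, 9280.5 and 13129 in macrophage-like, and 2789 and 4014 in thymocyte-like cells. Smooth muscle-like cells, the contractile cells of the media, had intermediate levels of C1s1 (57.3 and 59.5 CPM) and C1ra (53.9 and 40.0 CPM), which did not differ between the libraries beyond counting error for C1s1.

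C4b encodes the C4 protein that C1s cleaves, and C2 the serine protease that joins it in the classical C3 convertase. C4b was shared between fibroblast-like cells and a single macrophage-like cluster. Fibroblast-like cells held 764 CPM at 4 weeks (755 to 774) and 790 CPM at 2 weeks (778 to 802), a log2 difference of -0.05 (-0.08 to -0.02) that took the other sign under 6 of 11 alternatives (0.02 to 0.32). Among the 6 was an unplanned one that added clusters 8 and 16 to the fibroblast-like class (0.06). No cluster of the class was lower at 4 weeks: the log2 difference was 0.21 in cluster 3 (0.14 to 0.28), 0.06 in cluster 6 (0.01 to 0.12), 0.82 in cluster 13 (0.71 to 0.92) and 0.05 in cluster 0, where the interval included 0. The clusters made up different shares of the class at each time, as given beside C7. Cluster 8 gave 0.74 (0.67 to 0.82). Macrophage-like cells held 89.7 CPM (79.3 to 101) and 139 CPM (133 to 145), a log2 difference of -0.63 (-0.82 to -0.45). Within macrophage-like cells the level was set by cluster. Cluster 4, led by the resident macrophage genes Folr2 and Cd163, had 197 CPM at 4 weeks and 236 CPM at 2 weeks, while cluster 5, led by Arg1 and Mmp12, had 23.5 and 15.5 CPM, close to the 16.6 and 11.6 CPM of thymocyte-like cells. The make-up of the class differed too, since cluster 4 was 38.6% of macrophage-like cells at 4 weeks and 58.4% at 2 weeks.

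C2 was found in fibroblast-like cells at 56.3 CPM at 4 weeks (53.8 to 58.8) and 52.2 CPM at 2 weeks (49.3 to 55.3), with a log2 difference of 0.11 (0.00 to 0.21). Its UMIs in macrophage-like cells numbered 10 at 4 weeks, of which 1 cell held 60.0%, and 56 at 2 weeks. All 10 and 52 of them were in cluster 4 (8.68 and 5.89 CPM), against 0 and 4 in cluster 5. Thymocyte-like cells held 1.28 and 1.15 CPM.

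C3, the protein on which all pathways converge, was found in fibroblast-like cells and at a lower level in macrophage-like and neutrophil-like cells. Fibroblast-like cells held 3334 CPM at 4 weeks (3314 to 3353) and 2673 CPM at 2 weeks (2652 to 2695), a log2 difference of 0.32 (0.30 to 0.33). After thinning, 92.0% of the 4-week and 85.6% of the 2-week cells of this class had a C3 UMI. The median fibroblast-like cell, before thinning, held 34 C3 UMIs at 4 weeks and 44.5 in the deeper 2-week cells. Macrophage-like cells held 216 CPM (200 to 233) and 237 CPM (229 to 245), a log2 difference of -0.14 (-0.26 to -0.01), or -0.62 once the thymocyte-like level (81.4 and 29.9 CPM) was subtracted. A C3 UMI was found in 38.0% and 41.2% of thinned macrophage-like cells, and in 22.1% and 10.0% of thinned thymocyte-like cells. Both macrophage clusters had C3, with 164 and 204 CPM in cluster 4 and 248 and 278 CPM in cluster 5. Neutrophil-like cells held 422 CPM at 4 weeks, from 30 cells with a median depth of 3362 UMIs, and 532 CPM at 2 weeks, from 206 cells with a median of 3117, and dendritic cell-like cells 107 and 59.2 CPM. The fibroblast gene Dcn measured 533 and 129 CPM in neutrophil-like cells, against 197 and 64.9 CPM in thymocyte-like cells. The part of fibroblast RNA in the neutrophil-like C3 level was not tested.

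In endothelial-like cells C3 measured 351 CPM at 4 weeks (299 to 409, 53 cells) and 34.1 CPM at 2 weeks (22.5 to 49.6, 66 cells), a 10.3-fold difference (6.81 to 16.1). A single 4-week cell held 39.6% of these C3 UMIs, and without it the level was 221 CPM (179 to 269) and the difference 6.47-fold (4.19 to 10.3), an alternative chosen after seeing the data. The same cell held 194 of the 388 UMIs of the fibroblast gene Dcn, which measured 829 CPM at 4 weeks and 162 CPM at 2 weeks, or 432 CPM at 4 weeks without the cell. Serping1 measured 378 and 102 CPM, or 256 CPM at 4 weeks without it. The class pools cluster 23 (Selp, Vwf; 27 and 42 cells) and cluster 26 (Prox1, Ccl21a; 26 and 24 cells). The C3 difference was 21.2-fold (11.8 to 42.1) in cluster 23 and 2.62-fold (1.34 to 5.29) in cluster 26, and that of Serping1 7.83-fold and 1.15-fold. After thinning, 61.5% of 4-week and 47.6% of 2-week cluster 23 cells had none of the 8 genes found mainly in fibroblast-like cells. The part of fibroblast RNA in these endothelial-like levels was not tested.

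Cfb encodes factor B, the serine protease of the alternative C3 convertase, and of the 8 genes it was the one least confined to fibroblasts. Fibroblast-like cells held 79.1 CPM at 4 weeks (76.1 to 82.1) and 123 CPM at 2 weeks (118 to 128), a log2 difference of -0.64 (-0.71 to -0.56). Macrophage-like cells held 23.2 CPM (18.1 to 29.3) and 56.2 CPM (52.6 to 60.0), a log2 difference of -1.28 (-1.65 to -0.93), past 2-fold. In both classes Cfb was thus lower at 4 weeks, whereas thymocyte-like cells held 1.28 and 1.40 CPM. Among the fibroblast-like clusters Cfb was lower at 4 weeks in clusters 0, 3 and 6 and higher in cluster 13 (123 and 96.3 CPM). It was also higher in cluster 8, at 168 and 122 CPM (log2 0.45, 0.28 to 0.63). With these clusters weighted equally the fibroblast-like log2 difference was -0.13. In cluster 5 the level was 12.8 CPM at 4 weeks and 49.6 CPM at 2 weeks, and in cluster 4 it was 39.9 and 61.4 CPM. The share of thinned cells with a Cfb UMI was 16.7% and 23.0% in fibroblast-like cells, 12 of 266 cells and 141 of 1081 cells in the macrophage-like class, and 0.509% and 0.279% in thymocyte-like cells. Endothelial-like cells held 25.7 CPM at 4 weeks and 30.3 CPM at 2 weeks.

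C7, a terminal component that anchors the growing attack complex in the membrane, differed most between the libraries among the 8 genes found mainly in fibroblast-like cells. Fibroblast-like cells held 3040 UMIs, or 89.5 CPM (86.3 to 92.7), at 4 weeks and 371 UMIs, or 16.4 CPM (14.8 to 18.1), at 2 weeks. The level at 4 weeks was 5.46-fold higher (4.90 to 6.10), a log2 difference of 2.45. Macrophage-like cells held 2 and 5 UMIs, and thymocyte-like cells 6 and 1. Among thinned fibroblast-like cells 16.6% had a C7 UMI at 4 weeks and 5.47% at 2 weeks, against 1 of 393 thymocyte-like cells of the 4-week library and 0 of 1076 of the 2-week one.

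The clusters of the fibroblast-like class differed in C7 far more than in the other members, and the class was made up differently at the 2 times. Cluster 0, led by genes such as Pi16 and Pla1a, held 48.8% of the class at 4 weeks and 20.0% at 2 weeks, while cluster 6, with Cthrc1 and Ptx3 among its top genes, held 6.76% and 52.0%. Cluster 3, led by Cilp and Thbs4, held 36.3% and 17.4%. C7 measured 207 CPM at 4 weeks and 73.6 CPM at 2 weeks in cluster 3, 91.9 and 16.7 CPM in cluster 13 (Apod, Cxcl13), 27.8 and 12.6 CPM in cluster 0, and 13.9 and 5.12 CPM in cluster 6. Cluster 8 held 214 and 70.4 CPM and cluster 16 held 283 and 142 CPM. The 4-week level was therefore higher within each of these 6 clusters, with log2 differences of 1.49 (1.29 to 1.69) in cluster 3, 2.46 (1.84 to 3.16) in cluster 13, 1.15 (0.70 to 1.63) in cluster 0 and 1.44 (0.90 to 1.97) in cluster 6. They were 1.61 (1.40 to 1.82) in cluster 8 and 1.00 (0.12 to 2.03) in cluster 16. With the 4 fibroblast-like clusters weighted equally the log2 difference was 1.66, against 2.45 over the whole class.

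The other members were spread more evenly over the 4 fibroblast-like clusters. Serping1 ran from 2573 CPM (cluster 0) to 3011 CPM (cluster 13) at 4 weeks and from 2007 CPM (cluster 13) to 2316 CPM (cluster 3) at 2 weeks. C3 was lowest in cluster 3, at 2086 and 1605 CPM, and highest in cluster 13, at 5365 and 3042 CPM. C2 was lowest in cluster 0, at 24.5 and 20.3 CPM. It reached 108 CPM in cluster 13 at 4 weeks and 92.0 CPM in cluster 3 at 2 weeks. Cluster 8 held 161 and 104 CPM of C2. Cluster 8 was also the one place where C3 passed 2-fold between the libraries, at 4376 CPM at 4 weeks and 1938 CPM at 2 weeks (log2 1.18, 1.13 to 1.22), among the clusters with fibroblast markers. Clusters 13 and 8 both had all 8 fibroblast-side members higher at 4 weeks, with log2 differences from 0.36 for Cfb to 2.46 for C7 in cluster 13 and from 0.40 for Serping1 to 1.61 for C7 in cluster 8.

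Serping1 encodes the C1 inhibitor, the plasma protease inhibitor that blocks C1r and C1s. Fibroblast-like cells held 2670 CPM at 4 weeks (2653 to 2688) and 2243 CPM at 2 weeks (2223 to 2262), a log2 difference of 0.25 (0.24 to 0.27), and a UMI was found in 98.6% and 94.9% of thinned cells. Macrophage-like cells held 41.0 CPM at 4 weeks and 18.4 CPM at 2 weeks, a 2.23-fold difference (1.79 to 2.76). Thymocyte-like cells held 36.5 and 17.4 CPM, a 2.09-fold difference (1.68 to 2.60), so the macrophage-like difference was as large as the one in the background. Smooth muscle-like cells held 135 and 149 CPM.

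C3ar1 encodes the receptor for C3a, the fragment released when C3 is cleaved, and in these libraries it was a macrophage gene. Macrophage-like cells held 236 CPM at 4 weeks (219 to 254) and 365 CPM at 2 weeks (356 to 375), a log2 difference of -0.63 (-0.74 to -0.52). Cluster 4 held 318 CPM at 4 weeks and 431 CPM at 2 weeks, and cluster 5 held 186 and 282 CPM, so the level was lower at 4 weeks in both. Thinned macrophage-like cells had a C3ar1 UMI in 43.6% of cases at 4 weeks and 56.5% at 2 weeks. Dendritic cell-like cells held 6.71 and 28.2 CPM. Neutrophil-like cells held 0 UMIs at 4 weeks, where 3 counts would have given 18.6 CPM, and 3 UMIs at 2 weeks. Fibroblast-like cells held 13 UMIs (0.383 CPM) and 50 UMIs (2.21 CPM), against 0.510 and 1.98 CPM in thymocyte-like cells, and these are read as background. Summed over all kept cells, C3ar1 measured 10.4 CPM at 4 weeks and 82.2 CPM at 2 weeks. This sum mixes the share of macrophage-like cells with the level within them. Macrophage-like cells held 4.11% of all UMIs at 4 weeks and 21.8% at 2 weeks.

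Between the libraries, 1 of 9 members in fibroblast-like cells was past 2-fold higher at 4 weeks (C7) and 1 was lower (C3ar1, at background). Of all genes tested in these cells, 2.00% were past 2-fold higher and 5.96% lower. In macrophage-like cells 1 of 8 members with at least 20 UMIs was past 2-fold higher (Serping1, at background) and 1 lower (Cfb), beside 3.66% higher and 3.81% lower of all genes tested. The median log2 difference of the members was 0.17 in fibroblast-like cells and -0.12 in macrophage-like cells, against 0.00 and 0.02 over all genes tested. C3, C1s1, C1ra, C2 and Serping1 were thus close to the median gene in fibroblast-like cells, within 0.32 on the log2 scale.

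**Figure D4:**
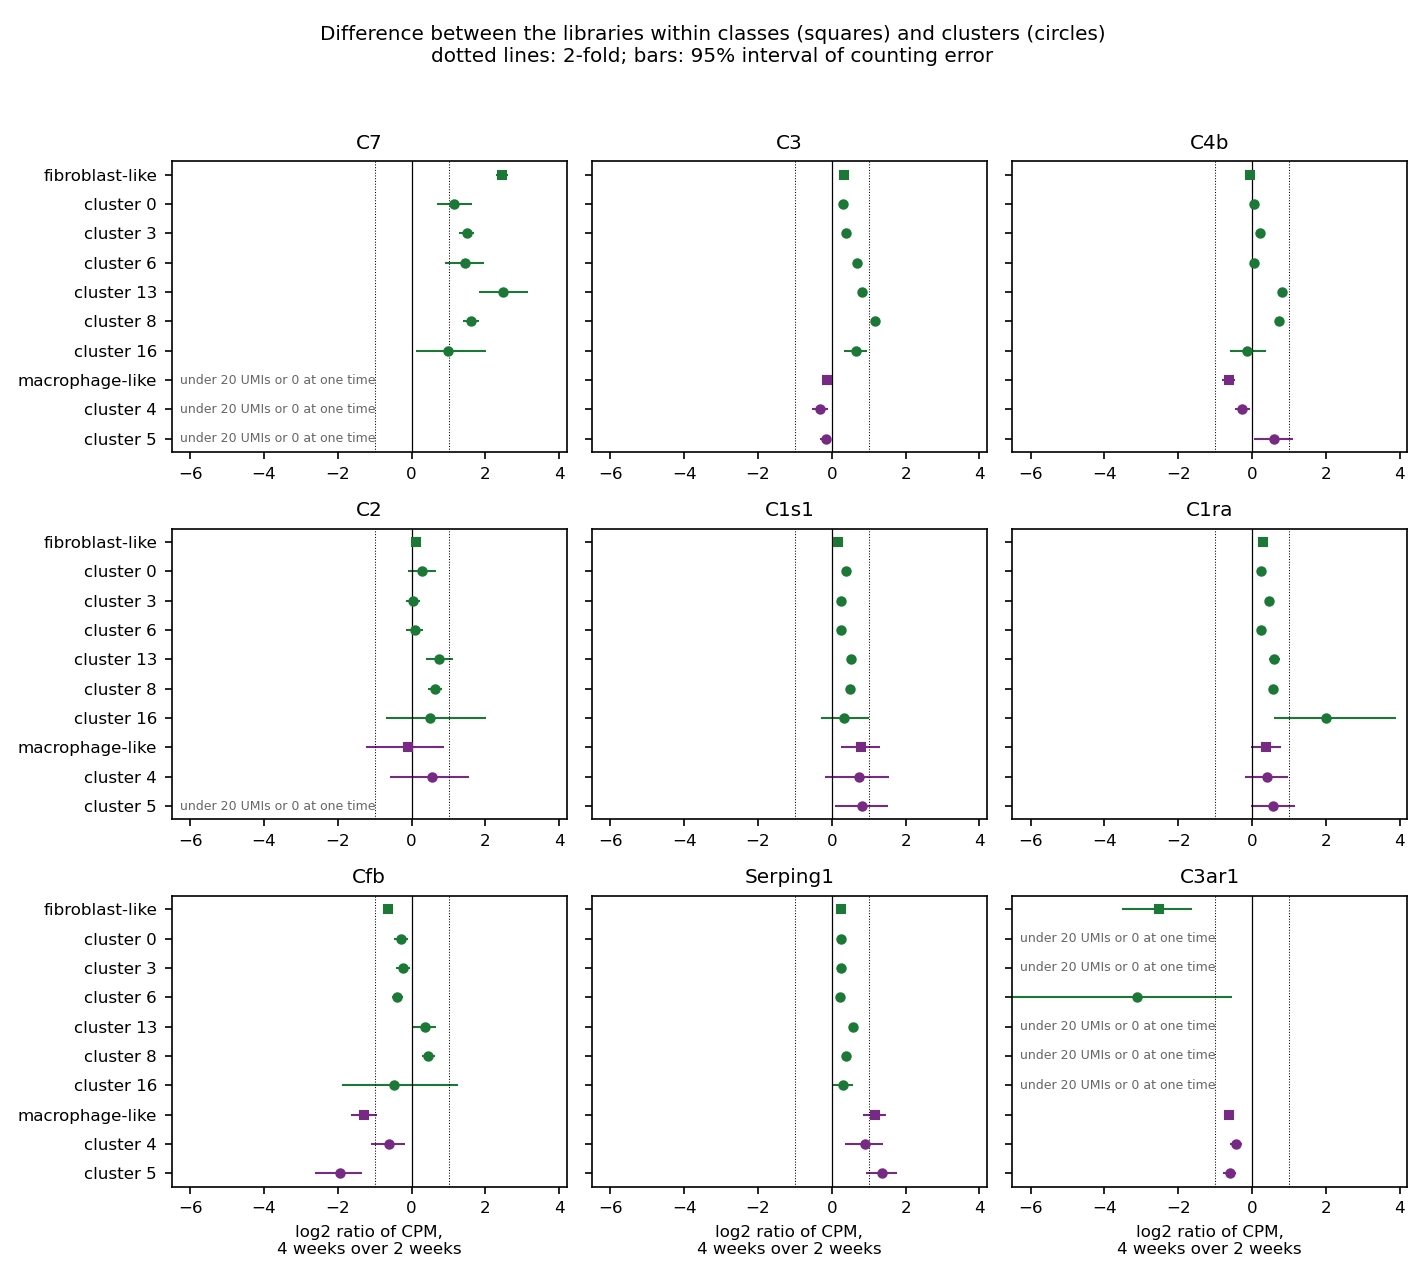
Log2 of the 4-week CPM over the 2-week CPM (horizontal axis) for each complement gene in the fibroblast-like and macrophage-like classes (squares) and in their clusters and clusters 8 and 16 (circles), with 95% intervals of counting error and dotted lines at 2-fold. C7 lies right of 0 in all 6 clusters with fibroblast markers, Cfb lies left of 0 in both macrophage clusters, and so does C3ar1, whose bar in cluster 6 runs past the frame.

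Several members were found together in single fibroblast-like cells. After thinning to 2700 UMIs, the median fibroblast-like cell had UMIs of 5 of the 8 fibroblast-side members at 4 weeks and 4 of 8 at 2 weeks. At least 6 were found in 19.6% of these cells in the 4-week library and 17.0% in the 2-week one, and in 42.1% and 22.9% of cells of cluster 8. The median macrophage-like cell had 1 of 8 at both times, no macrophage-like cell had 6, and the median thymocyte-like cell had 0. None of the 8 was found in 0.0789% of the 4-week and 1.72% of the 2-week fibroblast-like cells, and in 63.1% and 79.3% of thymocyte-like cells.

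Across the other genes of the system, a list of 55 complement genes, 54 of them in the tables and the 9 members included, was divided by role. In the comparison of fibroblast-like over macrophage-like cells, 16 of 36 listed genes with enough UMIs were past 2-fold higher and 14 lower at 4 weeks, and 18 of 37 higher and 14 lower at 2 weeks. Over all genes tested the shares were 25.1% higher and 16.4% lower at 4 weeks, and 28.0% and 17.6% at 2 weeks. The list too was chosen with earlier results known, so its counts are a description only. The recognition genes of the classical pathway were on the macrophage side. C1qa measured 3495 CPM at 4 weeks and 3368 CPM at 2 weeks in macrophage-like cells, and C1qb and C1qc differed as little between the times (log2 0.01 and 0.00). In fibroblast-like cells C1qa was at 4.47 and 25.3 CPM, below the 10.2 and 33.4 CPM of thymocyte-like cells. Fcna, a lectin-pathway recognition gene, was in cluster 4 (122 and 125 CPM) and nearly absent from cluster 5 (2.14 and 2.88 CPM).

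Among the regulators, Cd55, a membrane inhibitor of the convertases, was at 424 CPM at 4 weeks and 443 CPM at 2 weeks in fibroblast-like cells but at 70.8 and 58.5 CPM in cluster 8. Cfp, encoding properdin, which stabilises the alternative convertase, was a myeloid gene, at 348 and 573 CPM in macrophage-like cells (log2 -0.72, -0.81 to -0.63) and 281 and 371 CPM in dendritic cell-like cells. Clu, encoding clusterin, which keeps terminal complexes out of membranes, measured 849 and 211 CPM in endothelial-like cells, 609 and 477 CPM in smooth muscle-like cells, and 47.3 and 81.4 CPM in fibroblast-like cells. Colec12, a membrane collectin, measured 234 and 166 CPM in smooth muscle-like cells, where Cd59a, an inhibitor of the membrane attack complex, measured 75.4 and 71.0 CPM.

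Of the receptors, 8 of 9 at 4 weeks and 7 of 8 at 2 weeks were past 2-fold lower in fibroblast-like than in macrophage-like cells, beside 16.4% and 17.6% of all genes tested. C5ar1, the C5a receptor, measured 201 CPM at 4 weeks and 257 CPM at 2 weeks in macrophage-like cells and 285 and 346 CPM in neutrophil-like cells. Itgam, the alpha chain of complement receptor 3, measured 311 and 450 CPM in macrophage-like cells, and its beta chain Itgb2 measured 284 and 161 CPM. Itgax, the alpha chain of complement receptor 4, measured 98.9 and 25.5 CPM in macrophage-like cells, and within them 159 and 55.4 CPM in cluster 5 against 0.868 and 2.04 CPM in cluster 4. Cd93 measured 485 and 728 CPM in endothelial-like cells and 162 and 205 CPM in macrophage-like cells. Cr2, complement receptor 2 of B cells, measured 197 CPM in B cell-like cells at 4 weeks and 131 CPM at 2 weeks, where the class held 42 cells. Cr1l, a membrane regulator, was nearly even, at 85.0 and 66.2 CPM in fibroblast-like cells, 79.7 and 64.0 CPM in macrophage-like cells and 83.4 and 66.3 CPM in thymocyte-like cells, and C1qbp was at 72.2 and 58.5 CPM in fibroblast-like cells.

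Among terminal pathway genes C7 had 4436 UMIs in kept cells at 4 weeks and 614 at 2 weeks. Of its other genes, C8b had 0 UMIs in the kept cells of both libraries, C9 had 4 at 4 weeks and 1 at 2 weeks, and Hc, which encodes C5, had 14 and 6. C8a had 16 and 0, and C8g 28 and 54. C6 had 22 and 179 UMIs, mostly in cluster 4 (10.4 and 18.2 CPM). Between the libraries, 2 of 35 listed genes were past 2-fold higher and 10 lower in fibroblast-like cells, and 3 of 31 were higher and 3 lower in macrophage-like cells. Over all genes tested, 2.00% were higher and 5.96% lower in fibroblast-like cells, and 3.66% and 3.81% in macrophage-like cells. After the thymocyte-like level was subtracted, 3 listed genes were past 2-fold lower in fibroblast-like cells.

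Across 52 pairs of cluster and library, the genes with the pattern most like each member were ranked by Pearson's r of log2(CPM + 10) among 8968 genes, as a description, since the pairs share libraries and depth. Serping1 was most like Dcn (0.978), C1s1 most like Dpt (0.975), C1ra most like Htra3 (0.958), C4b most like Steap3 (0.954), C3 most like Gsn (0.940) and C2 most like Svep1 (0.940). C7 was most like Inmt (0.913), followed by Ccbe1 (0.906) and C2 (0.900). Cfb was most like Igf1 (0.955), a gene of fibroblasts and macrophages, and C3ar1 most like the Fc receptor gene Fcgr1 (0.955), Ms4a7 (0.948) and C1qc (0.946). Between members, r ran from 0.703 (C7 with Cfb) to 0.953 (C1s1 with Serping1) among the 8 fibroblast-side genes, and C3ar1 gave -0.28 (Serping1) to 0.15 (Cfb) with them.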

How the data were processed

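Single-cell RNA was measured in 1 library of injured carotid artery at each of 2 times. The deposited values are whole UMI counts per gene and cell, which the authors obtained from Cell Ranger 4.0.0, per the file headers, on mm10 per the submitters' processing notes. Other upstream settings are not given in the sources used here.

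Barcodes with under 300 genes, under 500 UMIs or over 10% mitochondrial UMIs were left out (73 and 483 at 4 weeks for shallow and mitochondrial barcodes, 54 and 383 at 2 weeks). Likely doublets were removed at a rate of 0.8% per 1000 barcodes by Scrublet score (549 and 255). Kept cells had a median of 8728 UMIs at 4 weeks and 11799 at 2 weeks. Both libraries were clustered together with scanpy 1.11.5 and leidenalg 0.10.2 under Python 3.11.15 (2000 variable genes, 30 components, 15 neighbours, resolution 1). A cluster was named when at least 3 markers and 50% of a list were raised in it, with a lead of 20 points over other lists and no other lineage ahead among its top 10 genes. A cluster whose cells were far shallower than the median of their library, with none of its markers among those 10, stayed unnamed. The lead rule between sister lineages was set after seeing the data.

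UMIs were summed per class and scaled to CPM. Intervals are exact 95% Poisson intervals for CPM and conditional binomial intervals for ratios (scipy 1.17.1). Shares of cells used cells thinned to 2700 UMIs, which left out 334 thymocyte-like cells at 4 weeks and 288 at 2 weeks. A gene counted as past the threshold at 2-fold with at least 20 UMIs over the pair of groups. With 1 library a time no test was possible. Listed genes were named when a class reached 50 CPM with at least 50 UMIs in 1 library, and genes with a like pattern as the first 3 by correlation. The low terminal pathway genes were named after their values were seen. Of the listed genes that met this rule, 1 is not reported here. Symbols with 2 identifiers (Itgam, C1s2) were taken at the first. The ratio step was run on simulated Poisson sums per class, as a check of the calculation. These sums hold no differences between cells, so they cannot show how well the intervals hold in real cells. The members and lists were chosen with earlier results of these data known. Alternatives changed the clustering, filters, scaling, background subtraction, weighting and thresholds. Promoters of 5 of the 9 genes were matched in RefSeq.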

Additional observations from a re-analysis of the deposited data

Results flagged for a closer look

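The fibroblast-like and macrophage-like classes were set against each other, and so were the clusters within each of them. In 3 of these settings a gene went one way between the libraries in one group of cells and the other way in another, beyond counting error, and none of these differences was tested, since each time is 1 library. C3 was higher at 4 weeks in fibroblast-like cells, with a log2 ratio of 0.319 (0.304 to 0.333), and lower in macrophage-like cells, at -0.135 (-0.257 to -0.014). Cfb was higher at 4 weeks in fibroblast-like cluster 13, at 0.355 (0.049 to 0.667), and lower in cluster 0 (-0.298), cluster 3 (-0.232) and cluster 6 (-0.385). C4b was higher at 4 weeks in macrophage-like cluster 5, at 0.599, where its level was close to that of thymocyte-like cells, and lower in cluster 4, at -0.264. Intervals cover counting error only.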

How the results depend on the processing

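No paired analysis was possible because each time is 1 library and no test was run. In the ratio of fibroblast-like over macrophage-like cells, 90 of 90 member values at each time kept their side of 2-fold. Between the times, 92 of 99 fibroblast-like values kept their sign and 99 of 99 their side of 2-fold, and 87 of 90 macrophage-like values kept their sign and 86 of 90 their side. The fibroblast-like C4b difference ranged from -0.10 to 0.32, and that of C2 was -0.09 at resolution 2. In macrophage-like cells C2 was 0.07 without doublet removal, 0.42 with clusters weighted equally and -1.26 without the cell holding most of its UMIs, so that 2 members were then past 2-fold lower. C1s1 was -0.83 and Serping1 2.29 there after the thymocyte-like level was subtracted. The 4-week macrophage-like C1s1 level (13.6 CPM) lay below the thymocyte-like one (16.3 CPM), so nothing remained and 3 counts were put in its place. The -0.83 is thus a bound and not a measured difference. Both genes are read as background in these cells. That subtraction also left fibroblast-like C3ar1 under 20 UMIs, so 0 members were past 2-fold lower in these cells. It raised the ratio of fibroblast-like over macrophage-like cells to 9.18 at 4 weeks and 11.2 at 2 weeks for Serping1, and to 9.49 and 8.51 for C1s1. The 9.49 also rests on the 3 counts put in for macrophage-like C1s1. Clustering each library on its own gave 2.41 for Cfb at 4 weeks. In the list of 55 genes, the count past 2-fold lower in fibroblast-like than macrophage-like cells at 4 weeks was 26 with a minimum of 1 UMI, against 14. Between the times in fibroblast-like cells, 16 were lower with a minimum of 1 UMI, 3 with a minimum of 100 UMIs and 3 after the subtraction, against 10, and 1 was higher with the minimum of 100 UMIs, against 2. In macrophage-like cells 10 were higher with a minimum of 1 UMI and 6 at 1.5-fold, against 3, and 5 were lower without each gene's top cell and 7 at 1.5-fold, against 3. Apart from changes that follow from a threshold's own construction, the cause was not tested. Depth limits C7 and C2 in macrophage-like cells, which held 2 and 10 UMIs at 4 weeks.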
